A study of Mus musculus with 16 samples.

Results

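The 45 genes described here encode the proteins that copy DNA and drive the cell cycle: 14 genes of DNA replication, 15 genes that control passage through G1, and 16 genes of G2 and mitosis. They were chosen by name, from a fixed list, out of 22367 protein-coding genes of the annotation, by a rule that uses no measured value. All 45 names were found in the annotation. Each gene was characterised by the ChIP-seq peaks that lay within 3000 bp of any of its annotated transcript starts. ChIP-seq, chromatin immunoprecipitation followed by sequencing, finds the stretches of DNA wrapped around histones that carry a given modification.

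The peaks came from 4 populations of sorted mouse skin cells, each immunoprecipitated for H3K4me3, H3K27me3 and H3K9me3, 3 trimethyl marks of histone H3, with IgG as background. The mice were wild type, CD1 x FVB, and labelled male, whereas the study's methods state that both sexes were used for most analyses. Each population was sorted from pools of several animals, with the reads of replicate pools combined before peak calling. Early anagen hair follicle stem cells (EA-HFSCs) were CD34+/α6-integrin+ cells from postnatal day (PD) 22 to 25, the onset of hair growth, and late catagen HFSCs (LC-HFSCs) were cells of the same sort from PD38 to 44, the end of follicle regression. The non-HFSCs of the same ages, nEA-HFSCs and nLC-HFSCs, were CD34-/α6-integrin+ cells, that is, α6-integrin+ cells without the bulge marker CD34. There was 1 peak list per population and mark, so no difference below has a replicate error or a test, and age and hair cycle stage cannot be told apart. In pooled chromatin of sorted cells, fewer cells carrying a mark and less of the mark per cell cannot be told apart either.

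The cell cycle alternates between DNA replication in S phase and chromosome segregation in mitosis. In G1, cyclin D with Cdk4 or Cdk6, and cyclin E with Cdk2, inactivate the retinoblastoma family, which releases E2F factors to switch on replication genes. In G2 and M, cyclin B with Cdk1 starts mitosis, and spindle checkpoint and aurora kinases govern its end; many of these late genes carry a CCAAT box and a cell cycle homology region (CHR) in their promoters. Bulge HFSCs divide during a short period of anagen and rest for most of the hair cycle. H3K4me3 marks the starts of active or poised genes, H3K27me3 is deposited by Polycomb at silent genes, and H3K9me3 is known from heterochromatin.

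The promoters of these genes showed the motifs for which the family is known, split by role. In the 300 bases from 250 before to 50 after the start, either E2F motif, TTTCCCGC or TTTGGCGC on either strand, was found in 6 of 14 replication genes, 5 of 15 G1 genes and 0 of 16 G2 and mitosis genes, against 2.04% of all 22367 promoters (TTTCCCGC 1.42%, TTTGGCGC 0.657%). CHR letters, TTTGAA on either strand, stood in 2, 2 and 10 genes of those roles (15.9% of all promoters), and CCAAT in 10, 4 and 13 (37.7%). Both TTTGAA and CCAAT stood together in 10 of 16 G2 and mitosis promoters, among them those of Cdk1, Plk1, Aurka, Aurkb, Mki67 and Top2a, against 6.48% of all promoters. No matches overlapped in any of the 45 windows. The windows held a median of 23 CpG dinucleotides, against 12 over all genes.

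The upstream bases of 6 genes are shown because their H3K4me3 peaks changed most or least: Cdt1 lost its peak in LC-HFSCs, those of Aurkb and Cdk4 narrowed most from EA-HFSCs to LC-HFSCs, that of Ccnb1 had the lowest width ratio of LC-HFSCs over nLC-HFSCs, and those of Ccnd2 and Rbl1 kept their width. Each run holds the 200 bases before the start, read 5′ to 3′ on the strand of the gene from the NCBIM37 assembly (mm9), with the letters of the 4 motifs above in capitals. The intervals were chr8:125091715-125091914 (plus strand), chr11:68858954-68859153 (plus strand), chr13:101556526-101556725 (minus strand), chr10:126500390-126500589 (plus strand), chr6:127101067-127101266 (minus strand) and chr2:157030249-157030448 (minus strand).
Cdt1: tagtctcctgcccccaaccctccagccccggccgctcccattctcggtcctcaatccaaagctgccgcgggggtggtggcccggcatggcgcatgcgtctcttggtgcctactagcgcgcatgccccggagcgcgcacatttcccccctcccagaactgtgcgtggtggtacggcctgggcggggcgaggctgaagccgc
Aurkb: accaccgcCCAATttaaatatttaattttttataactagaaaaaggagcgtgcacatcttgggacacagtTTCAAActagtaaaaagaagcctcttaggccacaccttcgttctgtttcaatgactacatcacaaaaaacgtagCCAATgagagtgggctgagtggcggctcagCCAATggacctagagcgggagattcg
Ccnb1: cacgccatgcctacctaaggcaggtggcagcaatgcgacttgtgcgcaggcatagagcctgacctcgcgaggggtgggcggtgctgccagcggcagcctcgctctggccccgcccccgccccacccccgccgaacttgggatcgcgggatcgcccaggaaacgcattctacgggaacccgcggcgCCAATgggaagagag
Cdk4: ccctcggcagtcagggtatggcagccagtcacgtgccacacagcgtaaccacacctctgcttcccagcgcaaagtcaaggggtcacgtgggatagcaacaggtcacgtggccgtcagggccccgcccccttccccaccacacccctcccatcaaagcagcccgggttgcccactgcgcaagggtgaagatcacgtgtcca
Ccnd2: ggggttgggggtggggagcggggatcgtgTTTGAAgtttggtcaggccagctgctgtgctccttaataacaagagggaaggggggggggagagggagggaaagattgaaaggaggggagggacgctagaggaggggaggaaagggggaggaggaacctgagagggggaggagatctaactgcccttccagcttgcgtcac
Rbl1: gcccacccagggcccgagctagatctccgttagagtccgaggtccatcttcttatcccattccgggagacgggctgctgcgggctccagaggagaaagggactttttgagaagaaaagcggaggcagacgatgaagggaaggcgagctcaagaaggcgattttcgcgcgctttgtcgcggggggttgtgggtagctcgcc
Aurkb holds 1 TTTGAA match in reverse orientation, 130 to 125 bases before the start, and 3 CCAAT matches, of which 2 lie nearer the start, and Ccnb1 holds 1 CCAAT box close to its start. The runs of Cdt1, Cdk4 and Rbl1 hold none of the letters searched. The TTTGGCGC of Cdt1 lies in its window outside the bases shown. Other forms of these motifs were not searched, so the runs and the counts above can miss them.

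Across the 12 lists, H3K4me3 peaks numbered 14718 to 24498, H3K27me3 peaks 1909 to 25534 and H3K9me3 peaks 1414 to 42277, with LC-HFSCs lowest for each mark. Read depth was not given with the lists; by the study's methods, more reads went into the LC-HFSC data than into the EA-HFSC data, and H3K27me3 and H3K9me3 detection was not saturated. The score of a peak is the peak caller's significance, 10 times the negative log10 of its p-value, and depends on depth. Many peaks share the score 3100, among them those over the starts of 18 of the 45 genes in nEA-HFSCs, 8 in nLC-HFSCs, 2 in EA-HFSCs and none in LC-HFSCs. Of 12 bulge markers, all 12 had H3K4me3 in both HFSC populations and 11 in both non-HFSC populations. The exception was Cd34, by which the cells were sorted. H3K27me3 stood at 7 of the 12 in each non-HFSC population and at 0 in the HFSCs. Over all genes it stood at 14.0% in EA-HFSCs, 3.73% in LC-HFSCs, 16.8% in nEA-HFSCs and 12.9% in nLC-HFSCs. All 6 basal keratinocyte markers were marked in the 4 populations. Markers of 6 immune genes had H3K4me3 in none, of 6 endothelial genes 1 in each, of 6 fibroblast genes 5 in EA-HFSCs, 3 in LC-HFSCs, 4 in nEA-HFSCs and 3 in nLC-HFSCs, of 6 melanocyte genes 3, 3, 3 and 2 in that order, and of 5 differentiated keratinocyte genes 3, 3, 4 and 4; their part in the results below was not tested.

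H3K4me3 sat at nearly every cell cycle gene in every population. A peak was found at 45 of 45 genes in EA-HFSCs (62.4% of all genes had one), 44 in LC-HFSCs (55.9%), 45 in nEA-HFSCs (61.7%) and 45 in nLC-HFSCs (58.8%). In each population all of these genes also had a peak directly over their start. Cdt1, the licensing factor that loads the MCM helicase, was the 1 gene to lose its peak between EA-HFSCs and LC-HFSCs, against 10.7% of the genes marked in EA-HFSCs overall.

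**Figure D1:**
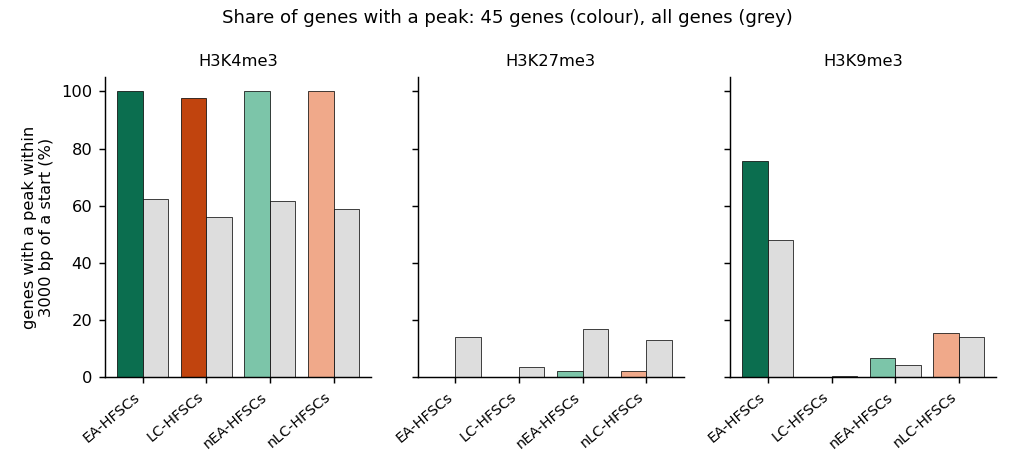
Percentage of genes (y axis) with a peak of each mark within 3000 bp of a transcript start in the 4 populations (x axis), for the 45 cell cycle and replication genes in colour and all 22367 protein-coding genes in grey. H3K4me3 stands at 44 or 45 of the 45 genes in each population, H3K27me3 at 0 or 1, and H3K9me3 at 34, 0, 3 and 7.

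The loss at Cdt1 was of a strong peak. The gene lies on the plus strand of chromosome 8 with its 1 annotated start at 125091915 (ENSMUSG00000006585.2). The peak over it spanned 3596 bp with a score of 1610.85 in EA-HFSCs, 3763 bp with 3100 in nEA-HFSCs and 2900 bp with 1513.07 in nLC-HFSCs, and there was none in LC-HFSCs. Of the 1494 genes that lost all H3K4me3 peaks from EA-HFSCs to LC-HFSCs, whose median score in EA-HFSCs was 178, 19 had a higher score than Cdt1. The nearest LC-HFSC peak lay 7311 bp away, over the start of the neighbouring gene Aprt, with a score of 188.32, and Galns and Trappc2l further along kept an LC-HFSC peak as well. Among 101 other genes of the pathway, 2 lost their peak in the same way: Cenpf, a kinetochore protein, with a score of 746.96 in EA-HFSCs, and Tpx2, a spindle assembly factor, with 1054.79. Both kept peaks in nEA-HFSCs and nLC-HFSCs.

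Several genes kept their peak over the start in LC-HFSCs only just above the caller's lower limit of 50. There 8 of 44 peaks over a start scored under 100, against 8.54% of all genes with a peak over the start, and 0 of 45 did in each of the other populations (2.37% of all genes in EA-HFSCs, 2.72% in nEA-HFSCs and 2.97% in nLC-HFSCs). Birc5, the survivin subunit of the chromosomal passenger complex, scored 61.78 in LC-HFSCs and 919.4 in EA-HFSCs. Cdc20, the activator of the anaphase promoting complex, scored 63.29 and 516.43, and the mitotic kinase gene Plk1 scored 64.5 and 957.25. Rrm2, Mcm3, E2f2, Bub1b and Ccnd3 scored 74.66, 75.42, 83.63, 88.08 and 88.3 in LC-HFSCs. E2f2 and Ccnd3 each had a stronger LC-HFSC peak over another of their starts, with scores of 273.61 and 505.9. Of these 8 genes, Birc5, Cdc20, Plk1 and Bub1b act in mitosis. The LC-HFSC list was also the shortest for this mark, and the part of this in the low scores was not tested.

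From EA-HFSCs to LC-HFSCs the H3K4me3 peaks of the cell cycle genes narrowed, about as much as those of genes in general. The widest peak within 3000 bp of a start had a median ratio of 0.796 (LC-HFSCs over EA-HFSCs, 44 genes), against 0.823 over 12473 genes. It was narrower in 42 of 44 genes (89.5% of all genes), by 1.5 times or more in 5 (16.1%), and wider by 1.5 times or more in 0 (0.257%). In the non-HFSCs the median ratio from early anagen to late catagen was 0.864 against 0.89 over all genes, with 42 of 45 narrower (79.9%) and 2 narrower by 1.5 times or more (8.76%). The medians of these genes were thus near those of all genes in both comparisons. Their shares of narrower peaks, 95.5% in HFSCs and 93.3% in non-HFSCs, were above those of all genes. Their shares narrower by 1.5 times or more, 11.4% and 4.44%, were below. For Mcm2, Ccnd3, Cdk4, Ccnb1 and Aurkb the widest peak was not the one over the start used here in at least 1 list, so the widths of single genes below are those of the peak over the start; over these, the median LC-HFSC to EA-HFSC ratio was 0.785 (all genes 0.826).

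**Figure D2:**
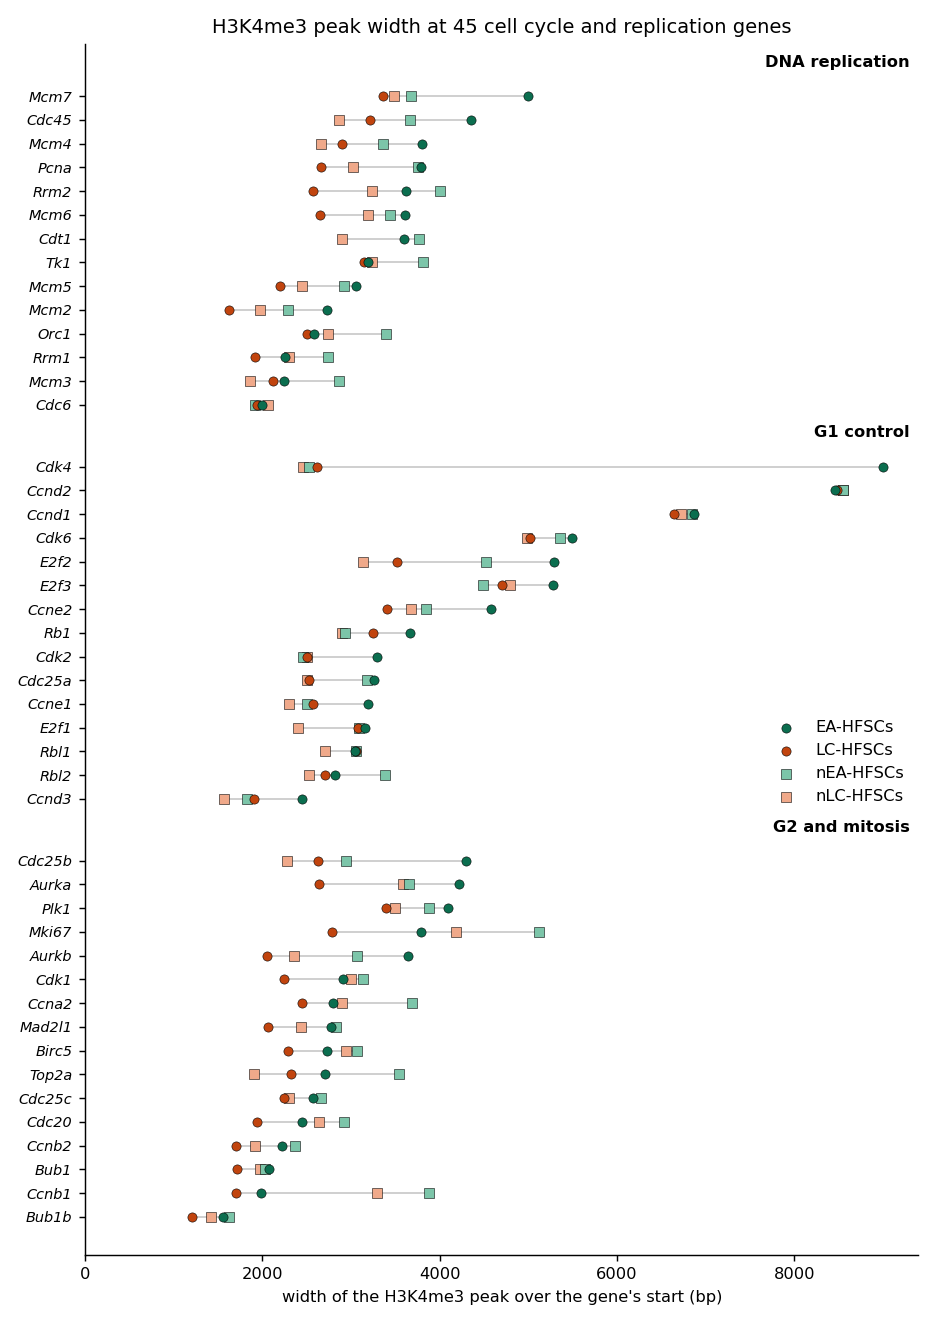
Width in bp (x axis) of the H3K4me3 peak over the start of each of the 45 genes (rows, grouped by role and ordered by width in EA-HFSCs), 1 point per population and no replicates. Ccnd2, Ccnd1 and Cdk6 are among the widest in every population, Cdt1 has no LC-HFSC point, and Mki67 is wider in both non-HFSC populations than in both HFSC populations.

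All 13 replication genes with a peak in both HFSC populations narrowed, against 89.5% of all genes. The genes of the MCM helicase, which unwinds DNA at the fork, differed in how far. Mcm7 spanned 5001 bp in EA-HFSCs, 3363 bp in LC-HFSCs, 3681 bp in nEA-HFSCs and 3482 bp in nLC-HFSCs, a peak it shares with the start of Ap4m1. Mcm2 spanned 2726, 1621, 2291 and 1973 bp in the same order, a ratio of 0.595 between LC-HFSCs and EA-HFSCs, the lowest of the role. Mcm3, in contrast, spanned 2249, 2120, 2865 and 1865 bp, and its narrowing was larger in the non-HFSCs (0.651) than in the HFSCs (0.943). Pcna, the sliding clamp, spanned 3795, 2658, 3756 and 3019 bp, and Rrm2, the ribonucleotide reductase subunit that limits nucleotide supply, spanned 3619, 2569, 3999 and 3233 bp. For both, each late catagen width was below each early anagen width. Cdc45, a partner of the helicase that shares its start region with Ufd1l, spanned 4351, 3213, 3669 and 2870 bp. The loading factor Cdc6 (1992, 1939, 1923 and 2060 bp), thymidine kinase Tk1 (3190, 3142, 3812 and 3240 bp) and the origin recognition gene Orc1 (2583, 2504, 3391 and 2746 bp) changed little between the HFSC populations. Tk1 and Orc1 were widest in nEA-HFSCs.

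The G1 genes held the widest H3K4me3 domains and those that changed least. Ccnd2, encoding cyclin D2, spanned 8456 bp in EA-HFSCs, 8482 bp in LC-HFSCs, 8553 bp in nEA-HFSCs and 8547 bp in nLC-HFSCs. Ccnd1, encoding cyclin D1, spanned 6874, 6641, 6843 and 6719 bp, and Cdk6, the kinase partner of the D cyclins, 5490, 5014, 5359 and 4980 bp. These domains were the widest of the 45 genes in LC-HFSCs, nEA-HFSCs and nLC-HFSCs, and of nearly 1 width in each population. Rbl1, which encodes the retinoblastoma relative p107, spanned 3051, 3054, 3059 and 2709 bp in that order, and with Ccnd2 was 1 of the 2 genes not narrower in LC-HFSCs. Other G1 genes did narrow: E2f2 from 5292 to 3524 bp, Ccne2 from 4578 to 3402 bp and Cdk2 from 3297 to 2503 bp. E2f1 (3158, 3083, 3092 and 2405 bp) and the retinoblastoma gene Rb1 (3669, 3250, 2934 and 2898 bp) were wider in LC-HFSCs than in nLC-HFSCs.

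Cdk4, the other kinase partner of the D cyclins, had the largest fall in width over the start among the 44 genes. Its peak spanned 8999 bp in EA-HFSCs, 2614 bp in LC-HFSCs, 2529 bp in nEA-HFSCs and 2459 bp in nLC-HFSCs, a ratio of 0.29 between the HFSC populations. The EA-HFSC peak also covered the start of March9. Under it lay 2 peaks of LC-HFSCs, covering 46.2% of its bases, and 3 peaks in each non-HFSC population, covering 56.1% in nEA-HFSCs and 55.3% in nLC-HFSCs. The EA-HFSC list thus held 1 long peak where the other lists held several shorter ones, with the bases between them in no peak.

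The G2 and mitosis genes all narrowed from EA-HFSCs to LC-HFSCs (16 of 16, against 89.5% of all genes), with a median ratio of 0.785 (0.823 over all genes). They also all narrowed from nEA-HFSCs to nLC-HFSCs (79.9% of all genes), with 0.863 (0.89 over all genes). With peaks under 1000 bp apart joined, 15 of 16 narrowed between the non-HFSCs, and Ccnb2 went from 2369 to 2559 bp. Mki67, which encodes the proliferation marker Ki-67, spanned 3795 bp in EA-HFSCs, 2784 bp in LC-HFSCs, 5122 bp in nEA-HFSCs and 4189 bp in nLC-HFSCs. Ccnb1, encoding cyclin B1, spanned 1986, 1705, 3882 and 3295 bp. In EA-HFSCs a second Ccnb1 peak of 2094 bp, with a score of 166.6 against 694.04 over the start, lay beside the first, in a stretch that each non-HFSC list covered for the most part with 1 peak over both. With peaks under 1000 bp apart joined, Ccnb1 spanned 4115 bp in EA-HFSCs, above the 3882 bp of nEA-HFSCs, so only its low LC-HFSC width held under both measures. Cdk1, the mitotic kinase, spanned 2906, 2248, 3139 and 3002 bp, and Cdc20 spanned 2451, 1938, 2919 and 2644 bp. In Mki67, Cdk1 and Cdc20 both non-HFSC widths exceeded both HFSC widths. Top2a, the topoisomerase of chromosome condensation, spanned 2709, 2327, 3541 and 1908 bp, and its narrowing in the non-HFSCs (0.539) was larger than in the HFSCs (0.859). Of this role, Aurkb, Cdc25b and Aurka narrowed most within the HFSCs. Aurkb, encoding a kinase of the chromosomal passenger complex, spanned 3639, 2058, 3064 and 2352 bp, a ratio of 0.566. Aurka, whose peak also covers the start of Cstf1, spanned 4217, 2639, 3652 and 3591 bp. A separate EA-HFSC peak of 7483 bp reached the edge of the Aurkb window and covered no start of a protein-coding gene. It is the widest within 3000 bp of Aurkb there. Peaks of LC-HFSCs, nEA-HFSCs and nLC-HFSCs covered 92.1%, 90.8% and 75.8% of its bases. Cdc25b, a phosphatase that activates Cdk1, spanned 4296, 2625, 2940 and 2282 bp, and the spindle checkpoint genes Bub1b (1555, 1211, 1625 and 1417 bp) and Bub1 (2074, 1715, 2028 and 1978 bp) were among the narrowest.

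The comparison of HFSCs with non-HFSCs of the same age separated the roles more than the comparison over the hair cycle. In EA-HFSCs most genes had wider H3K4me3 peaks than in nEA-HFSCs, by a median of 1.19 over all genes, and the 45 genes stood at 1.02, with 20 of 45 narrower (16.9% of all genes). By role, the median was 1.02 for replication (6 of 14 narrower), 1.17 for G1 control (3 of 15) and 0.948 for G2 and mitosis (11 of 16). In late catagen the median of LC-HFSCs over nLC-HFSCs was 1.08 over all genes and 0.971 for 44 genes, with 28 narrower (26.3%). By role it was 0.941 for replication (9 of 13 narrower), 1.03 for G1 control (5 of 15) and 0.85 for G2 and mitosis (14 of 16). More of the G2 and mitosis genes were thus narrower than wider in HFSCs at both ages, while most genes were wider. The exceptions were Top2a and Cdc25b in late catagen, and in early anagen Cdc25b (1.46), Aurkb (1.19 over the start), Aurka (1.15), Plk1 (1.05) and Bub1 (1.02).

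The difference lay mainly on the downstream side of the start, within the gene. Over the G2 and mitosis genes, the median reach of the peak into the gene was 1566 bp in EA-HFSCs, 1108 bp in LC-HFSCs, 1882 bp in nEA-HFSCs and 1533 bp in nLC-HFSCs, while the upstream medians were 1011, 1002, 981 and 903 bp. At 1500 bp downstream, 10 of these 16 genes were covered in EA-HFSCs, 3 in LC-HFSCs, 12 in nEA-HFSCs and 8 in nLC-HFSCs. Over all 22367 genes, with or without a peak, the shares in that order were 40.5%, 26.4%, 30.9% and 23.0%. Cover over all genes thus also fell from EA-HFSCs to LC-HFSCs. Unlike for the 16 genes, it was higher in HFSCs than in non-HFSCs of the same age. At 2000 bp, 5, 0, 6 and 4 of the 16 genes were covered, and cover over all genes differed in the same directions as at 1500 bp. The counts of the 16 genes take any peak as cover. The peak over the start itself reached 1500 bp in 9 genes and 2000 bp in 4 in EA-HFSCs, the difference being the second Ccnb1 peak. The peak reached less far downstream in LC-HFSCs than in nLC-HFSCs in 15 of 16 (32.3% of all genes), Cdc25b being the exception, and less far in EA-HFSCs than in nEA-HFSCs in 12 of 16 (22.2%). For replication genes these counts were 9 of 13 and 8 of 14, and for G1 genes 4 of 15 and 5 of 15. From EA-HFSCs to LC-HFSCs the reach shortened in 16 of 16 G2 and mitosis genes and in 40 of 44 genes in all (84.4%), and from nEA-HFSCs to nLC-HFSCs in 15 of 16 and 36 of 45 (75.1%). Mki67 reached 2338 bp into the gene in EA-HFSCs, 1490 bp in LC-HFSCs, 3679 bp in nEA-HFSCs and 2892 bp in nLC-HFSCs. Cdk1 reached 2132, 1544, 2403 and 2252 bp. Birc5 reached 1154, 700, 1557 and 1619 bp. In each of these 3 genes LC-HFSCs were lowest and both HFSC values lay below both non-HFSC values. Ccnb1 reached 1135, 973, 3071 and 2992 bp, but 3264 bp in EA-HFSCs once its 2 peaks there were joined, which was the farthest of the 4 populations.

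**Figure D3:**
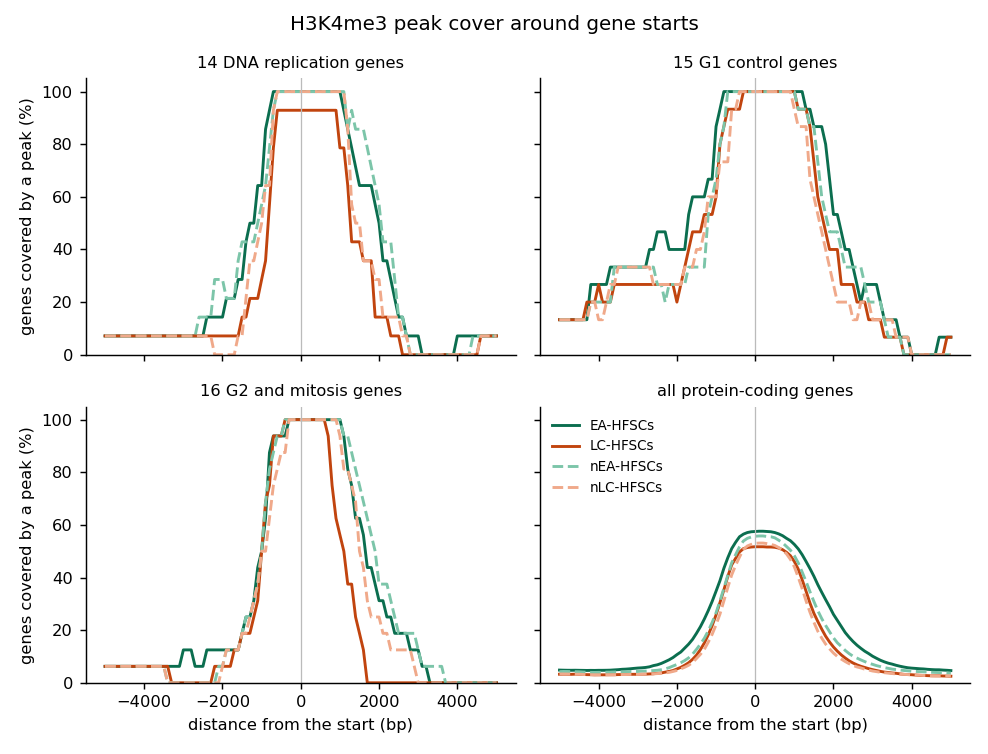
Percentage of genes covered by an H3K4me3 peak (y axis) at each distance from the start in bp (x axis, positive into the gene), for each role and for all protein-coding genes, in the 4 populations (solid, HFSCs; dashed, non-HFSCs). In the G2 and mitosis panel the LC-HFSC line falls first on the downstream side, to 3 of 16 genes at 1500 bp, while the upstream sides of the 4 lines lie together, with 8 of 16 genes covered at 1000 bp upstream in each.

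Peak scores were compared as ranks, since they depend on depth. Each gene's peak over the start was given its percentile among all genes with such a peak in the same list, so that 50 is the middle of all marked genes. The G1 genes ranked high, with medians of 73.4 in EA-HFSCs, 68.4 in LC-HFSCs, 72.7 in nEA-HFSCs and 65.7 in nLC-HFSCs, and the replication genes stood at 53.5, 52.3, 70.3 and 48.1. The G2 and mitosis genes stood at 31.0 and 18.6 in the EA and LC stem cells, and at 52.8 and 57.1 in nEA-HFSCs and nLC-HFSCs. All 16 ranked lower in EA-HFSCs than in nEA-HFSCs (47.0% of all genes), and 13 of 16 ranked lower in LC-HFSCs than in nLC-HFSCs (51.5%). Over all 45 genes the counts were 35 of 45 and 29 of 44. Between the HFSC populations 9 of 16 ranked lower in LC-HFSCs (28 of 44 over the whole set, 56.7% of all genes), and between the non-HFSCs 9 of 16 ranked lower in nLC-HFSCs (27 of 45, 58.6%), shares close to those of all genes. Peaks with the shared score of 3100 are tied at a rank of 85.2 in nEA-HFSCs, 94.2 in nLC-HFSCs and 96.8 in EA-HFSCs. Those ranks are set by how many genes share the score, so the size of a difference that involves them cannot be read, and in nEA-HFSCs this holds for 18 genes.

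**Figure D4:**
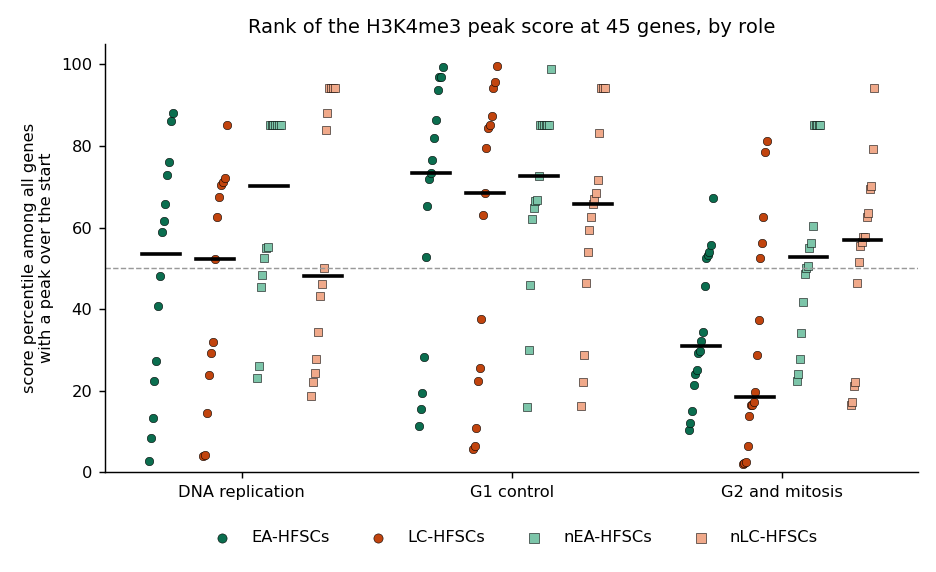
Percentile of the H3K4me3 peak score over the start among all genes with such a peak in the same list (y axis), for each gene (points) by role and population (x axis), with the median as a bar and the middle of all genes as a dashed line. The G2 and mitosis medians are 31.0 and 18.6 in the HFSCs and 52.8 and 57.1 in the non-HFSCs, and the rows of tied points at 85.2 and 94.2 are peaks with the score 3100.

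Single genes show the split. Plk1 ranked at 34.3 in EA-HFSCs, 2.44 in LC-HFSCs, 85.2 in nEA-HFSCs and 69.4 in nLC-HFSCs. Aurka, the kinase of the spindle poles, ranked at 54.1 and 28.7 in the HFSCs and held the tied score in both non-HFSC populations, and Birc5 at 32.3, 2.0, 34.2 and 57.6. In all 3 genes LC-HFSCs were lowest and both non-HFSC ranks were above both HFSC ranks. Cdc25b (67.2, 81.2, 85.2 and 63.6), Mad2l1 (45.8, 78.6, 60.3 and 62.7) and Ccnb2 (10.5, 17.3, 27.7 and 17.2) were the 3 genes that did not rank lower in LC-HFSCs than in nLC-HFSCs. At the other end, E2f3 ranked at 95.7 and Cdk6 at 99.7 in LC-HFSCs, where none of the 45 genes held the tied score, Cdk6 having the highest LC-HFSC score of the 45 genes (1363.62). Tk1 had the lowest rank in EA-HFSCs, 2.91 with a score of 111.91, although its peak there was 3190 bp wide.

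H3K27me3 was nearly absent from the cell cycle genes. A peak lay within 3000 bp of 0 of 45 genes in EA-HFSCs (14.0% of all genes), 0 in LC-HFSCs (3.73%), 1 in nEA-HFSCs (16.8%) and 1 in nLC-HFSCs (12.9%). With none in EA-HFSCs there was none to lose, whereas of all genes with this mark in EA-HFSCs 73.9% were without it in LC-HFSCs. The 1 gene was Bub1, a kinase of the spindle checkpoint, in both cases. Its nEA-HFSC peak, chr2:127659413-127673890, was 14478 bp long with a score of 223.93, began 1812 bp from the nearest Bub1 start and covered the start of the neighbouring gene Acoxl; in nLC-HFSCs the peak was 1371 bp long, 2457 bp away, with a score of 63.21. Neither reached the Bub1 start, which had H3K4me3 in each population.

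H3K9me3 was found at most of the cell cycle genes in EA-HFSCs and at none in LC-HFSCs. The counts were 34 of 45 in EA-HFSCs (47.9% of all genes), 0 in LC-HFSCs (0.505%), 3 in nEA-HFSCs (4.14%) and 7 in nLC-HFSCs (14.1%). All 34 were lost between the HFSC populations, as were those of 99.2% of all genes with a peak in EA-HFSCs. Since 69.3% of the genes with H3K4me3 in EA-HFSCs had an H3K9me3 peak there, the 34 of 45 is close to the share of genes with H3K4me3. The LC-HFSC list held 1414 H3K9me3 peaks in all and the EA-HFSC list 42277, whereas the nEA-HFSC and nLC-HFSC lists were of similar length (17873 and 18236 peaks) and marked 3 and 7 of the 45 genes. When every H3K9me3 list was cut to its 1414 highest-scoring peaks, 1 gene in EA-HFSCs, 0 in LC-HFSCs, 0 in nEA-HFSCs and 1 in nLC-HFSCs were marked. Beyond this, the part of list length and depth in these counts was not tested.

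In EA-HFSCs the H3K9me3 peaks at the cell cycle genes lay on H3K4me3 peaks. At all 34 genes an H3K9me3 peak overlapped an H3K4me3 peak of the same cells. At all 34 the widest H3K9me3 peak was also narrower than the widest H3K4me3 peak. Neither was counted over all genes, so neither can be read as particular to the cell cycle genes. The genes with an H3K9me3 peak had the stronger H3K4me3 peaks, with a median score of 1481.3 (454.06 to 3127.13) against 516.43 (111.91 to 845.28) in the 11 without one, which were Mcm3, Cdc6, Rrm2, Tk1, Ccne1, E2f1, E2f2, Ccnb2, Cdc20, Bub1 and Bub1b. Over all genes the medians were 1460.9 and 844.72. The lowest score among the 34 genes, 454.06, was that of Mcm2, whose H3K9me3 peak lay 2416 bp from its start, over the start of the neighbouring gene Tpra1. The highest H3K9me3 score was at Cdk6, a peak of 3956 bp with 361.07, followed by Pcna with 175.01, Mcm7 with 133.66, Ccnd2 with 132.45 and Mcm4 with 124.58. In comparison, the H3K9me3 peaks of Ccnd3 (43.32), Cdt1 (46.03), Birc5 (48.49) and Ccnb1 (50.41) lay just above the lower limit of 40 for that mark.

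**Figure D5:**
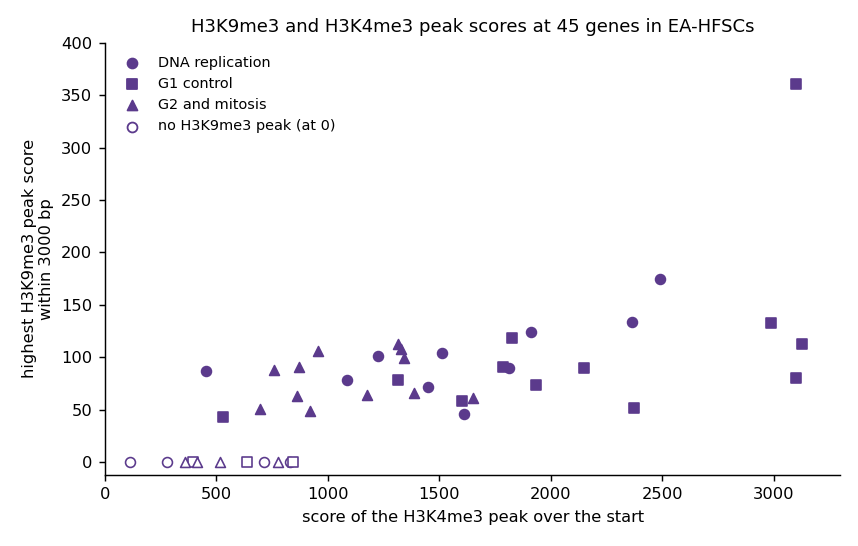
Highest H3K9me3 peak score within 3000 bp (y axis) against the score of the H3K4me3 peak over the start (x axis) for each of the 45 genes in EA-HFSCs, with open symbols at 0 for the 11 genes without an H3K9me3 peak. The open symbols all lie at H3K4me3 scores of 845.28 or less, and Cdk6 is the highest point, at 361.07.

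The H3K9me3 peaks of the non-HFSCs were few, and how often such peaks lay on H3K4me3 peaks was not counted over all genes. Those of Orc1, Rb1 and Rbl1 in nEA-HFSCs lay off the H3K4me3 peaks (0 of 3 overlapped), 523, 1350 and 2857 bp from the nearest transcript start, with scores of 51.9 to 88.51. In nLC-HFSCs 6 of 7 overlapped an H3K4me3 peak. There Cdk6 (105.74), Mcm5 (82.72) and Mcm7 (41.67) had an H3K9me3 peak over the start, as in EA-HFSCs, while those of Mcm2, Cdk4, Rb1 and Ccna2 covered no start. The Ccna2 peak, 1128 bp from the start, was 329 bp long.

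The other genes of the pathway, taken from a list of 102 names of which 101 were found, gave similar counts for the marks and a smaller split between the cells. H3K4me3 was present at 99, 97, 99 and 99 of them in EA-HFSCs, LC-HFSCs, nEA-HFSCs and nLC-HFSCs, H3K27me3 at 3, 1, 6 and 2, and H3K9me3 at 79, 1, 8 and 25. Ccnb3 and Aurkc, known mainly from the germ line, had no H3K4me3 peak in any population. The genes with H3K27me3 were Bub3, in each population, Mycn in both non-HFSC populations, E2f7 and Racgap1 in EA-HFSCs and nEA-HFSCs, and E2f6 and E2f8 in nEA-HFSCs. Of 44 further G2 and mitosis genes, 20 of 42 were narrower in EA-HFSCs than in nEA-HFSCs and 22 of 40 in LC-HFSCs than in nLC-HFSCs, with median ratios of 1.02 and 0.982. Their peaks reached less far downstream in LC-HFSCs than in nLC-HFSCs in 25 of 40 and in EA-HFSCs than in nEA-HFSCs in 20 of 42. Their scores ranked lower in 29 of 40 and 29 of 42. These counts lay between those of the 16 G2 and mitosis genes above and those of all genes. For 32 further replication genes and 25 further G1 genes the median width ratios of LC-HFSCs over nLC-HFSCs were 1.01 and 1.06.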

How the data were processed

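The 16 samples were ChIP-seq libraries of 4 sorted populations with 3 antibodies or IgG, and 12 peak lists, 1 per population and mark, were used. Per the labels and the study's methods, reads were trimmed (Trimmomatic 0.22), aligned with Bowtie2 to mm9, and peaks were called with MACS on pooled replicates against IgG of the same population. The deposited score is the authors' 10 times −log10 p (lowest 50 for H3K4me3, 40 for the other marks), and the deposited positions were read as half-open and written 1-based. Read depth was not given with the lists. The lists set no interval on a width, so counts and widths carry no error.

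GENCODE vM1 on NCBIM37, the same assembly as mm9, gave 22367 protein-coding genes, and peaks ended within the assembly on 21 of 21 chromosomes. A gene had a peak if at least 1 bp lay within 3000 bp of any transcript start, and its width was that of the widest such peak. Widths, reach and scores of single genes were taken from the peak over the start of the first-numbered transcript, or of the gene where no transcript has that number. A fold of 1.5 was the threshold for counts of widths. No test was made, since there was 1 list per condition. Genes were described in full by rule: those lacking H3K4me3 in a population, the largest falls and rises of width from EA-HFSCs to LC-HFSCs, the 5 widest in EA-HFSCs, those with H3K27me3, those with H3K9me3 in LC-HFSCs or nEA-HFSCs, and those whose marks differed between HFSCs and non-HFSCs; other genes named serve as examples of their role. The genes, lists and rules were chosen with earlier results of these data known. Python 3.11.15 and NumPy 2.4.6 were used, and the measures were tested on simulated data.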

Additional observations from a re-analysis of the deposited data

Results flagged for a closer look

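Of the 44 genes with an H3K4me3 peak over the start in all 4 lists, 5 changed width in opposite directions in HFSCs and non-HFSCs. The change was taken from early anagen to late catagen, and the difference was not tested. The share of all genes with opposite changes was not counted. Over all genes the peak over the start narrowed in 10343 of 11534 in HFSCs and in 9364 of 11749 in non-HFSCs. Cdk2 had a ratio of 0.759 in HFSCs and 1.02 in non-HFSCs, E2f3 had 0.891 and 1.07, and Cdc6 had 0.973 and 1.07. With peaks under 1000 bp apart joined, Cdc6 spanned 3119 bp in nEA-HFSCs and 2060 bp in nLC-HFSCs, so it narrowed in both. Rbl1 had 1.0 (3 bp wider) and 0.886, and Ccnd2 had 1.0 (26 bp wider) and 0.999 (6 bp narrower).

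The number of the 45 genes with an H3K9me3 peak fell from 34 to 0 in HFSCs and rose from 3 to 7 in non-HFSCs over the same ages, also without a test. The shares of all genes moved in the same directions, from 47.9% to 0.505% in HFSCs and from 4.14% to 14.1% in non-HFSCs. The lists of H3K9me3 peaks held 42277, 1414, 17873 and 18236 peaks in EA-HFSCs, LC-HFSCs, nEA-HFSCs and nLC-HFSCs.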

How the results depend on the processing

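Of 162 values recomputed under 9 other settings, 145 stayed close to the reported value, 17 moved, and 0 medians changed direction. Close meant within 1.5 times the reported count or within the 95% order-statistic interval of the reported median. That interval is a spread over the 44 or 45 genes, which are not replicates of a condition. The cause of the moves was not tested. With scores of at least 100 in every list, 7 genes rather than 1 had H3K4me3 in EA-HFSCs and none in LC-HFSCs, and H3K9me3 stood at 12 genes in EA-HFSCs, 0 in nEA-HFSCs and 1 in nLC-HFSCs, with H3K27me3 at 0 in nLC-HFSCs. When every list of a mark was cut to the length of its shortest list (1414 peaks for H3K9me3, 1909 for H3K27me3, by score), H3K9me3 stood at 1, 0 and 1 genes in EA-HFSCs, nEA-HFSCs and nLC-HFSCs and H3K27me3 at 0 in both non-HFSC populations, so nearly all of the 34 genes in EA-HFSCs had peaks weaker than the strongest 1414 of that list. Within 1000 bp of a start, H3K9me3 stood at 1 gene in nEA-HFSCs and 4 in nLC-HFSCs, and H3K27me3 at 0 in both non-HFSC populations; from the gene start only, or from protein-coding transcripts only, H3K9me3 stood at 1 gene in nEA-HFSCs. With peaks under 1000 bp apart joined, 4 genes rather than 2 narrowed by 1.5 times or more from nEA-HFSCs to nLC-HFSCs. The counts of narrower and lower-ranked G2 and mitosis genes in HFSCs against non-HFSCs, and widths of the peak over the start, were settings and results added after the data were seen. These G2 and mitosis counts stayed within 1.5 times under each alternative run. The largest move was in LC-HFSCs against nLC-HFSCs with scores of at least 100, where 10 genes were narrower rather than 14 and 10 ranked lower rather than 13. Under that limit Birc5, Cdc20, Plk1 and Bub1b had no LC-HFSC peak left to compare. With peaks under 1000 bp apart joined, also chosen after seeing the data, the peak over the start reached less far downstream in 11 of 16 G2 and mitosis genes in EA-HFSCs against nEA-HFSCs and in 15 of 16 in LC-HFSCs against nLC-HFSCs, and for Ccnb1 the EA-HFSC value turned from below to above that of nEA-HFSCs. No paired analysis was possible because each condition has 1 list of pooled animals.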
